A study of Mus musculus with 8 samples.

Results

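The subject was Ntrk2, the gene of the neurotrophin receptor TrkB, as read by every probe set on the array whose gene symbol was Ntrk2. There were 6 of them among the 22511 probe sets that were not controls, and the gene was chosen with its pattern over brain development already known. Its levels by age and region are therefore given as a description, with no test, whereas its response to the chromosomal duplications could be tested. RNA of 8 mouse brain samples had been hybridised to 1 Affymetrix 430B array each: whole embryonic brain taken 13.5 or 15.5 days post coitum (dpc), and, from neonates, cerebellum and cortex, the last also described as forebrain. In each of these 4 contexts 1 sample came from T9H/+ mice whose duplicated proximal chromosome 7 was maternal and whose duplicated proximal chromosome 15 was paternal (called maternal-7 below), and 1 from T9H/+ mice with the parental origins exchanged (paternal-7). T9H is a reciprocal translocation between these chromosomes. All 8 samples carried it, none was without a duplication, and Ntrk2 lies on chromosome 13. The design text states that there were no biological replicates, and the labels do not say whether a sample came from 1 animal or several.

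TrkB is the receptor tyrosine kinase for brain-derived neurotrophic factor (BDNF) and neurotrophin-4. Ligand binding joins receptors into pairs that phosphorylate each other and pass the signal to the Ras and MAP kinase, PI3 kinase and phospholipase C pathways, which support the survival, growth and synapses of neurons. The gene gives rise to a full-length receptor, best known from neurons, and to shorter receptors without the kinase domain, with transcript ends of their own, which astrocytes also make. The RefSeq gene table of GRCm38.p6 lists 9 Ntrk2 transcripts, of which 3 are curated and 6 predicted. Probe sets of this array type were designed mostly toward transcript ends, so probe sets of 1 gene can follow different transcripts. Which transcript each Ntrk2 probe set follows was not determined here.

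The signals are MAS5 values on a linear scale. A signal is called dim where it lies below its array's median, which was between 229.8 and 285.7 on the 8 arrays. The probe sets are given letters, and in each pair of values maternal-7 comes before paternal-7. Levels are compared only within a probe set, since probes differ in brightness for reasons other than RNA level.

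Probe set C (1437560_at) was dim at the earliest age and bright later. It gave 238 and 166 at 13.5 dpc, 2334 and 2702 at 15.5 dpc, 3507 and 7209 in neonatal cortex and 5182 and 5929 in neonatal cerebellum. Both 13.5 dpc arrays were dim, and all 6 later arrays lay far above their medians. The 15.5 dpc level was at least 9.19-fold that at 13.5 dpc, a bound set against the dim arrays' medians, and the cortical and cerebellar levels were at least 18.4-fold and at least 20.3-fold that at 13.5 dpc. The step from 15.5 dpc to the neonatal brain was smaller, 2-fold in cortex and 2.21-fold in cerebellum.

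Probe set F (1458622_at) had the same ages at its low and high ends, with steps of more equal size. Its signals were 807 and 508 at 13.5 dpc, 1970 and 1939 at 15.5 dpc, 4389 and 6034 in neonatal cortex and 3663 and 4296 in neonatal cerebellum. It was above the array median at every age, already so at 13.5 dpc. The level at 15.5 dpc was 3.05-fold that at 13.5 dpc (2.44 in maternal-7 and 3.81 in paternal-7), and cortex stood a further 2.63-fold higher and cerebellum 2.03-fold higher than the 15.5 dpc brain.

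Probe set B (1435305_at) followed the same order with smaller steps. It gave 411 and 601 at 13.5 dpc, 1000 and 933 at 15.5 dpc, 1705 and 1995 in cortex and 1578 and 1823 in cerebellum. Its level at 15.5 dpc was 1.94-fold that at 13.5 dpc (2.43 in maternal-7 and 1.55 in paternal-7), and cortex and cerebellum stood 1.91-fold and 1.76-fold above the 15.5 dpc brain.

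Probe set A (1435196_at) was nearly level between the embryonic ages. Its signals were 1588 and 1466 at 13.5 dpc, 1428 and 1343 at 15.5 dpc, 2089 and 3361 in cortex and 3776 and 4503 in cerebellum. The 15.5 dpc arrays lay slightly below the 13.5 dpc arrays, at 0.908-fold, an order that is lost when each signal is divided by its array's median (5.56 and 4.83 against 6.07 and 5.13). Above the 15.5 dpc brain cortex stood 1.91-fold and cerebellum 2.98-fold higher.

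Probe set E (1446712_at) varied little and lay slightly lower in the neonatal brain. It gave 399 and 429 at 13.5 dpc, 400 and 647 at 15.5 dpc, 312 and 366 in cortex and 391 and 244 in cerebellum. The highest neonatal signal, 391, was just below the lowest embryonic one, 399. Divided by the array medians, neonatal arrays (1.06 to 1.66) and embryonic arrays (1.5 to 2.33) overlapped, so the separation of probe set E depends on the scaling.

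Probe set D (1444121_at) was dim on all 8 arrays, with signals of 68.1 and 111 at 13.5 dpc, 103 and 219 at 15.5 dpc, 37.6 and 70.7 in cortex and 27 and 84.5 in cerebellum. No fold is given for it, and it was left out of every test. The other 5 probe sets passed the filter for testing, which asked for a signal above the array median on at least 2 of 8 arrays. A, B, E and F were above it on all 8 arrays and C on 6.

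**Figure D1:**
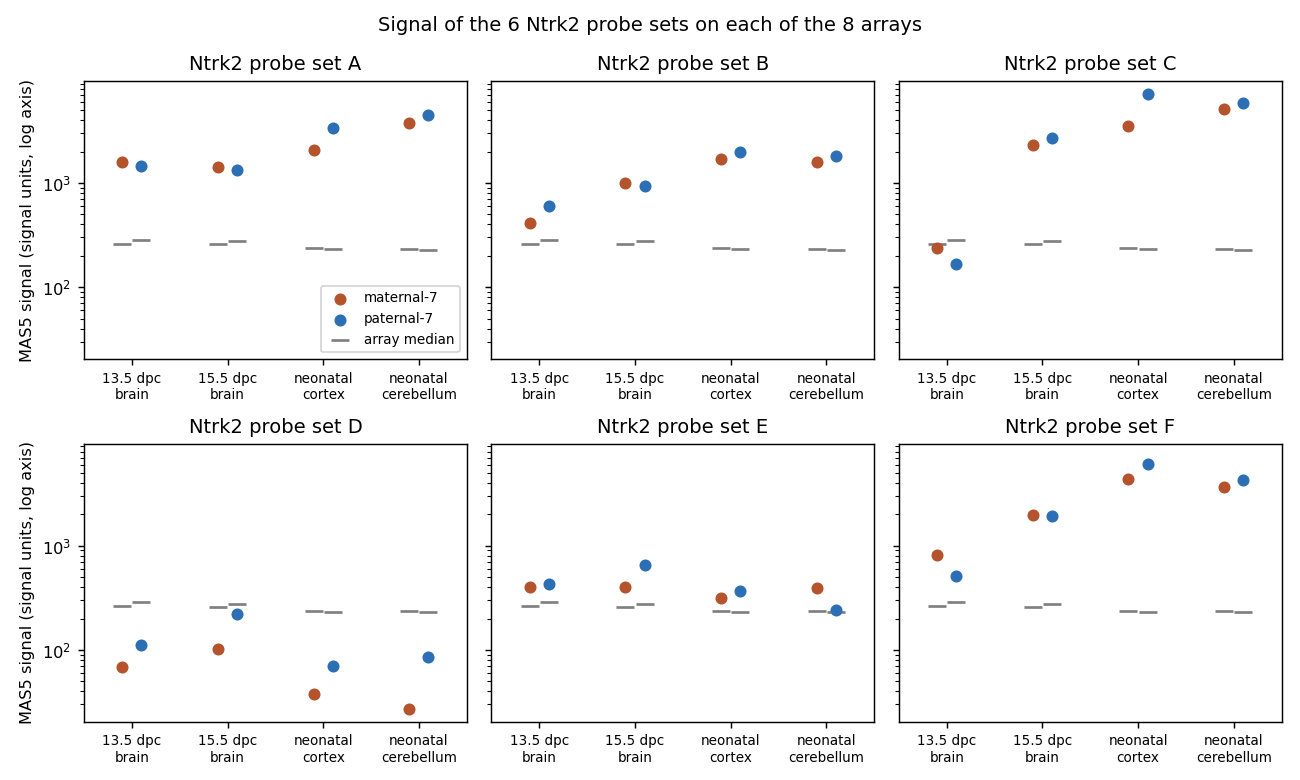
MAS5 signal (signal units, log axis) of each Ntrk2 probe set on each array, by context, with points for maternal-7 and paternal-7 samples and grey dashes for the array medians. Probe set C goes from below the array medians at 13.5 dpc to 5182 and 5929 in neonatal cerebellum, A stays level between the embryonic ages, and D lies below the array medians throughout.

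In probe sets A, B, C and F all 4 neonatal arrays lay above all 4 embryonic arrays, an arrangement found in 11.8% of the 13221 tested probe sets. The opposite arrangement, that of probe set E, was found in 16.5%. Averaged over the arrays on the log2(signal + 58.5) scale, where 58.5 is a pseudocount that shrinks differences of dim probe sets, the neonatal level exceeded the embryonic level by 2.71 ± 0.50 for C (SD over the 2 duplications, here and below). It exceeded it by 1.95 ± 0.46 for F, 1.27 ± 0.01 for B and 1.15 ± 0.40 for A, whereas E differed by -0.44 ± 0.39. Between 13.5 and 15.5 dpc the differences were 3.32 ± 0.43 for C, 1.52 ± 0.42 for F, 0.88 ± 0.41 for B, 0.27 ± 0.38 for E and -0.13 ± 0.02 for A. The 15.5 dpc arrays lay above the 13.5 dpc arrays in B, C and F, as in 22.5% of tested probe sets, and below them in A, as in 24.1%. In bulk tissue a change in the share of a cell type and a change in RNA per cell cannot be told apart.

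Ntrk2 probe sets differed more among themselves than those of most genes. Among the 166 genes with at least 4 tested probe sets, the difference between 15.5 and 13.5 dpc ranged over 3.45 log2 units across the 5 tested Ntrk2 probe sets, from -0.13 in A to 3.32 in C. This was rank 2 of 166, after Zhx3 at 3.51, and the median gene had a range of 0.72. Both 13.5 dpc signals of C were dim; with every dim signal on the array raised to its array's median, a setting added after seeing the data, C differed by 2.95 and the Ntrk2 range was 3.09, rank 1 of 166, against a median of 0.65. For the neonatal against embryonic difference the Ntrk2 range was 3.15, rank 1, with a median gene at 0.86. That rank rested on probe set E: without it the range was 1.56 and the rank 27. The other genes kept all their probe sets in this ranking, so it does not compare like with like. For 15.5 against 13.5 dpc E (0.27) lay between A and C, so leaving it out could not change the range or the rank. The range there rested on C, with F next highest at 1.52, and no rank without C was computed. As the gene was chosen for its pattern over these contexts, the ranks are a description.

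**Figure D2:**
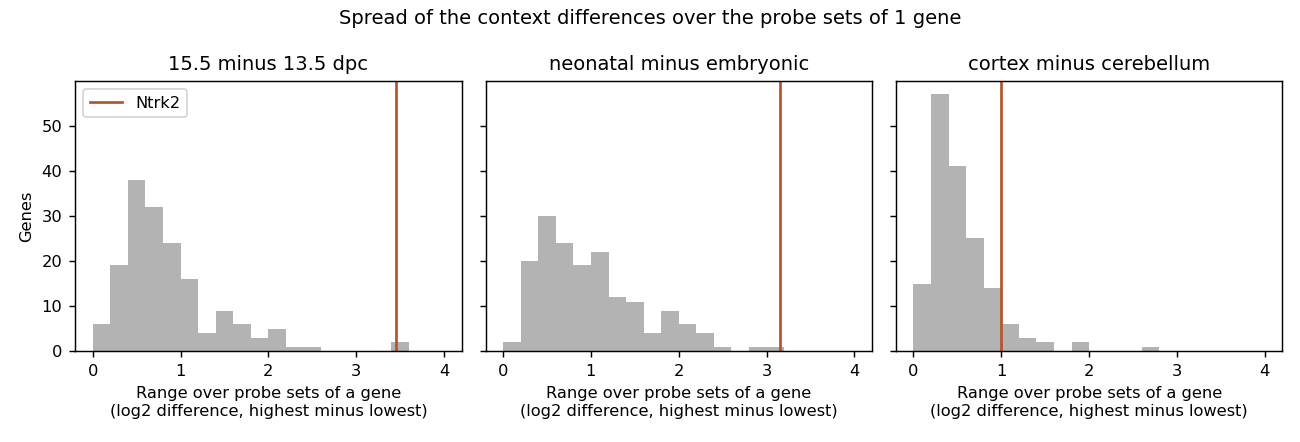
Histograms over 166 genes of the range of log2 differences across a gene's tested probe sets (log2 units on the horizontal axis, number of genes on the vertical axis), with a line for Ntrk2, in 3 context comparisons. The Ntrk2 line lies at 3.45 for 15.5 against 13.5 dpc and at 3.15 for neonatal against embryonic, far to the right of most genes.

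Across the 8 arrays the log2 values of B, C and F went closely together, with Pearson r of 0.93 for B and C, 0.95 for B and F and 0.96 for C and F. Probe set A went less closely with them, at 0.75, 0.67 and 0.73. Probe set E correlated negatively with A (-0.68), B (-0.48), C (-0.30) and F (-0.44). The 8 points share 4 contexts and each array's scaling, so these values describe the profiles and carry no test.

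The neonatal regions separated the probe sets in another way. In cortex probe set A stood at 0.643 of its cerebellar level, a log2 difference of -0.63 ± 0.30, and both cortical arrays (2089 and 3361) were below both cerebellar arrays (3776 and 4503), as in 21.4% of tested probe sets. Leaving out either cortical array moved this difference to -0.29 or -0.96. Probe set F showed the reverse, at 1.3-fold in cortex and 0.37 ± 0.16 on the log2 scale, with both cortical arrays above both cerebellar ones, as in 19.6% of tested probe sets. This separation of F is narrow: divided by the array medians, the lower cortical and the higher cerebellar value were both 18.7. In B, C and E the cortical and cerebellar arrays overlapped, with differences of 0.12 ± 0.01, -0.14 ± 0.59 and 0.11 ± 0.55. For C the cortical arrays themselves, 3507 and 7209, lay further apart than the regions.

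The order of levels differed between the probe sets. For A it ran from cerebellum through cortex and 13.5 dpc to 15.5 dpc brain, with no overlap between neighbours in the deposited signals. Divided by the array medians, the embryonic ages of A overlapped. Both cortical arrays lay above both 13.5 dpc arrays, as in 25.6% of tested probe sets. For F the order was cortex, cerebellum, 15.5 dpc and 13.5 dpc, also with no overlap in the deposited signals, although the regions met at 18.7 when divided by the array medians. For B and C the neonatal regions overlapped and came before 15.5 dpc and then 13.5 dpc. Cortex lay wholly above the 15.5 dpc brain in A, B, C and F, as in 22.3% of tested probe sets, and cerebellum did so in the same 4, as in 21.9%. For E the embryonic ages overlapped with each other, as did the neonatal regions.

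Markers of neurons and glia differed with age as well. Of the astrocyte and radial glia list 12 of 27 genes had a probe set, and their summed signal was 15076 to 17275 at 13.5 dpc, 21160 to 25300 at 15.5 dpc and 37948 to 42306 in the neonatal regions. Of its 9 tested genes 7 were called higher in the neonatal than in the embryonic brain, where 14.3% of all tested probe sets were. Among them were the glutamate transporters Slc1a3 (1.15 ± 0.15, SE) and Slc1a2 (1.13 ± 0.16) and the water channel Aqp4 (1.03 ± 0.25), with limma adjusted p of 0.00273, 0.00385 and 0.0218. The brightest probe sets of Nfia (0.23) and Nfib (-0.36) were not called, and a dimmer one of Nfib was called lower (-0.49, limma adjusted p = 0.0439). Sox9 and Tnc were dim on all arrays. The neuronal list, with 11 of 21 genes measured, summed to 18046 to 25454 at 13.5 dpc, 43081 to 48317 at 15.5 dpc and 67995 to 76973 in the neonatal regions, and 9 of its 10 tested genes were called higher in the neonatal brain. Between 13.5 and 15.5 dpc 7 neuronal and 3 astrocyte genes were called higher, where 3.52% of all tested probe sets were. The meningeal and mesenchymal list (3 of 10 genes measured, Col1a2 dim on all arrays) stood at 3025 and 3289 at 13.5 dpc and between 356 and 600 elsewhere, almost wholly through the mesenchymal transcription factor Prrx1. The part of these cell types in the Ntrk2 values was not tested.

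The remaining checks of tissue and RNA gave the following ranges. Cortical markers were on the cortical side in 8 of 8 tested genes, with Neurod2, Bcl11b and Slc17a7 called, where 0.197% of all tested probe sets were called higher in cortex. Of 4 tested cerebellar markers 3 were on the cerebellar side, with Tfap2b called, where 0.129% of all tested probe sets were called lower in cortex. Zic1 was not on the cerebellar side (0.05). Choroid plexus transcripts, led by Ttr, were bright on every array (summed signal 24815 to 58548), the microglial list was represented by Ptprc alone and dim on all arrays, and no red cell marker had a probe set. The ratio of 3′ to 5′ control signals was 1.04 to 1.12 for Actb and 0.74 to 0.838 for Gapdh, with no array apart.

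The duplications were what the study compared, and the choice of Ntrk2 did not use that contrast. None of the 5 tested Ntrk2 probe sets was called between paternal-7 and maternal-7 samples in limma fits over all 8 arrays with terms for context and duplication, and 0.00756% of all tested probe sets (1 of 13221) were called higher. Without adjustment, 1147 probe sets (8.68%) had p under 0.05 and no Ntrk2 probe set did. The fitted paternal-7 minus maternal-7 differences (± SE) were 0.18 ± 0.17 for A, 0.20 ± 0.15 for B, 0.25 ± 0.23 for C, 0.09 ± 0.21 for E and 0.01 ± 0.20 for F. Their adjusted p were 0.753, 0.676, 0.737, 0.911 and 0.989.

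The differences were not alike in the 4 contexts. Probe set C was 1.03 higher in paternal-7 in cortex, 0.19 in cerebellum and 0.21 at 15.5 dpc, and differed by -0.41 at 13.5 dpc, where both of its signals were dim. Probe set A differed by 0.67 in cortex and 0.25 in cerebellum, and by -0.09 and -0.11 in the 15.5 and 13.5 dpc brain. Probe set F had the same signs, with 0.45, 0.23, -0.02 and -0.61. Probe set B differed by 0.22, 0.20, -0.09 and 0.49 in the same order of contexts, and E by 0.20, -0.57, 0.62 and 0.09. For comparison, the SD of this difference over all tested probe sets was 0.399 and 0.416 in neonatal cortex and cerebellum and 0.576 and 0.531 in the 15.5 and 13.5 dpc brain.

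In A, B, C and F paternal-7 was higher in both neonatal regions, as in 28.2% of tested probe sets. A and F were also lower in both embryonic brains, as in 7.22%. A fit with separate neonatal and embryonic duplication effects, chosen after the values were seen, gave neonatal minus embryonic effects of 0.56 ± 0.27 for A (limma adjusted p = 0.573) and 0.66 ± 0.30 for F (adjusted p = 0.561). The corresponding values were 0.71 ± 0.39 for C (0.61), 0.01 ± 0.29 for B (0.99) and -0.55 ± 0.37 for E (0.657), each with its adjusted p in parentheses. No probe set on the array was called for this difference (0%), and 9.14% had an unadjusted p under 0.05. The summed signal of the oligodendrocyte lineage list (3 of 12 genes measured: Pdgfra, Gpr17 and Mobp, none of them dim on all arrays) had ratios of paternal-7 over maternal-7 with the same signs, at 1.67 and 1.49 in cortex and cerebellum and 0.833 and 0.663 at 15.5 and 13.5 dpc. In the neonatal regions this came almost wholly from Gpr17 (607 and 1327 in cortex, 1190 and 2184 in cerebellum), whereas Pdgfra was 181 and 165, then 360 and 333, and Mobp 415 and 511, then 464 and 478. At 15.5 dpc the ratio came mostly from Gpr17 (265 and 106) and at 13.5 dpc mostly from Pdgfra (379 and 96.5). The paternal-7 signal was dim in both cases, so the signs did not come from the same gene in every context. For astrocytes the paternal-7 over maternal-7 ratios were 1.11, 1.04, 0.836 and 0.873, so the oligodendrocyte list was not alone in these signs. For neurons they were 1.11, 0.927, 0.892 and 0.709, also below 1 in both embryonic brains. The same held there for the progenitor, endothelial, choroid plexus and cerebellar lists, but not for the microglial, mesenchymal, muscle and cortical lists. The part of these cell types in the Ntrk2 differences was not tested. Probe set D was higher in paternal-7 in 4 of 4 contexts (mean 0.59 ± 0.19, SD over 4 contexts), as were 9.67% of tested probe sets, but all 8 of its signals were dim.

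**Figure D3:**
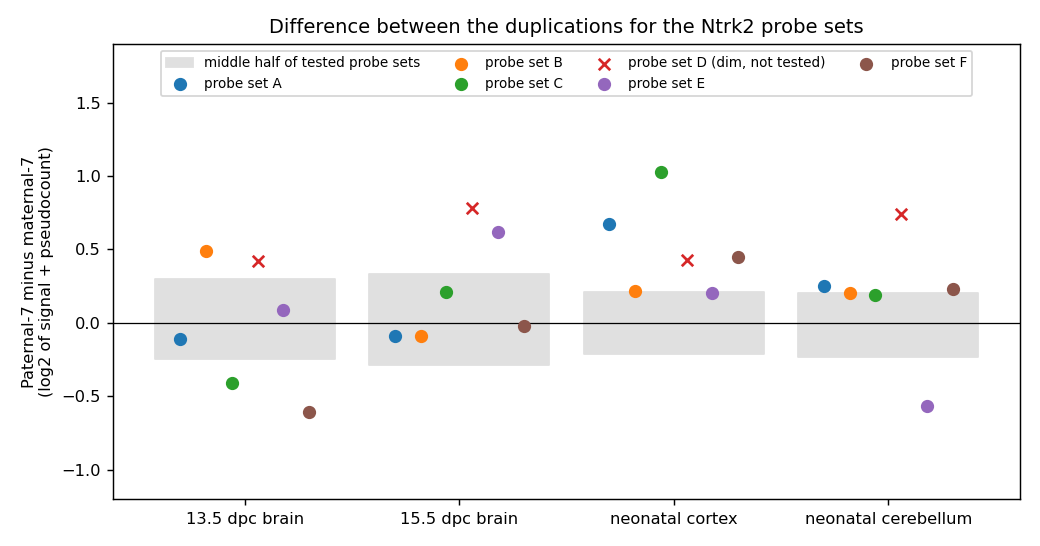
Paternal-7 minus maternal-7 difference (log2 of signal + pseudocount) of each Ntrk2 probe set in each context, 1 pair of arrays per point, over a grey band from the lower to the upper quartile of all tested probe sets. The largest single difference is that of C in neonatal cortex, 1.03, and F reaches -0.61 at 13.5 dpc.

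The other genes of the neurotrophin pathway were taken from 8 lists with 146 genes besides Ntrk2, of which 59 had a probe set here and 51 were tested, each by its brightest probe set. In the comparison of neonatal with embryonic brain 17 were called higher and 4 lower, 41.2% with both directions together. Of all tested probe sets 14.3% were called higher and 16.4% lower, which are shares of probe sets and not of genes by their brightest probe set. The gene lists were chosen with earlier results of these data known. Their counts and shares, here and below, are therefore a description and not an independent test of the pathway. The median difference of the 51 genes was 0.33, against -0.16 for all tested probe sets. Centring each array on its median, which raised the median of all probe sets by 0.18, gave 24 higher and 2 lower in the lists and 2398 higher and 1058 lower in all, against 1887 and 2168. The count was sensitive to single arrays: it was 7 without the paternal-7 cortex, 12 and 11 without the maternal-7 and paternal-7 cerebellum and 11 without the paternal-7 13.5 dpc brain. Of the 21 genes, 7 were called in all 8 fits that left out 1 array: Sorcs1, Camk2a, Camk4, Slitrk4, Lingo1, Vgf and Rasgrp1. Counting a gene as called by any of its tested probe sets gave 24 higher and 6 lower. Of the 21 genes, 8 had another tested probe set, which differed in sign in 4 (Ntrk3, Camk2a, Pik3ca and Homer1), in none of them past the threshold.

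Of the ligands, Ntf5, the gene of neurotrophin-4, was tested and was called lower in the neonatal brain (-0.80 ± 0.18, SE, adjusted p = 0.0175). Its signals were 424 and 442 at 13.5 dpc, 178 and 337 at 15.5 dpc and 141 to 195, all dim, in the neonatal regions, so that it was at least 1.4-fold lower there. Ntf5 passed the filter for testing only through embryonic arrays, the group where it was higher. Of 3 tested receptors, the neurotrophin-3 receptor Ntrk3 was called higher (0.68 ± 0.13, adjusted p = 0.0116), although its other tested probe sets gave 0.26 and -0.21 and were not called. The sortilin-related receptor Sorcs1 was also called higher (1.14 ± 0.20, adjusted p = 0.00761), and Sorl1, a further sorting receptor of the family, gave 0.60 ± 0.22 (adjusted p = 0.0787).

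Downstream of the receptor, 2 of 6 adaptors were called higher and 1 lower. These were the Ras exchange factor Sos1 (0.51 ± 0.15, adjusted p = 0.0397), the Trk-binding scaffold Kidins220 (0.51 ± 0.15, adjusted p = 0.0407) and the adaptor Sh2b3 (-0.48 ± 0.14, adjusted p = 0.0443). None of 4 Ras and MAP kinase genes was called by its brightest probe set in any of the 3 context comparisons. The largest differences were 0.61 ± 0.19 for the kinase Rps6ka5 and -0.60 ± 0.21 for the inhibitor Spry4 between 13.5 and 15.5 dpc (adjusted p of 0.109 and 0.15). Dimmer probe sets were called between neonatal and embryonic brain, in opposite directions for the kinase gene Braf (0.97 and -0.51, adjusted p of 0.0158 and 0.0307) and upward for Rps6ka5 (0.47, adjusted p = 0.0404). In the PI3 kinase and phospholipase list 5 of 13 were called higher and none lower, led by the calcium and calmodulin dependent kinases Camk4 (2.47 ± 0.17, adjusted p = 0.000601) and Camk2a (1.31 ± 0.17, adjusted p = 0.00301). The other tested probe sets of Camk2a gave 1.04 (called), 0.35 and -0.40 (not called). The PI3 kinase catalytic subunit Pik3ca, the protein kinase C gene Prkca and the regulatory subunit Pik3r1 gave 0.96, 0.81 and 0.50.

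Of 14 tested genes for receptor trafficking and turnover 4 were called higher, the synaptic membrane proteins Slitrk4 (1.42 ± 0.22), Slitrk5 (0.73 ± 0.19) and Slitrk6 (0.59 ± 0.16, above the array median on 2 arrays) and the axon growth inhibitor component Lingo1 (1.24 ± 0.15), with limma adjusted p of 0.00478, 0.0283, 0.0354 and 0.00211. The signals of Slitrk6 were 166 to 233 in the neonatal regions, 82.5 and 29.1 at 15.5 dpc and 282 and 165 at 13.5 dpc. Its highest signal was thus embryonic, and its call came from the low 15.5 dpc signals. The deubiquitinase Usp8 was called lower (-0.57 ± 0.15, adjusted p = 0.0275). Among 9 genes that respond to neuronal activity or BDNF, 4 were called higher and 1 lower. Vgf, a secreted neuropeptide precursor, changed most, from 62.6 to 470 on the embryonic arrays to 2979 to 4644 on the neonatal ones (4.21 ± 0.24, adjusted p = 0.000574). The others were the Ras activator Rasgrp1 (1.27), the early transcription factor Egr3 (0.90, dim on all arrays but the cortical ones), the synaptic scaffold Homer1 (0.84) and, lower, the transcription factor Creb1 (-0.76).

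Between 13.5 and 15.5 dpc, where 3.52% of all probe sets were called higher and 3.07% lower, 4 of the 51 genes were called higher (Camk2a, Lingo1, Nr4a3 and Vgf) and 2 lower (Slitrk6 and the proneurotrophin-cleaving protease Pcsk5). Vgf was at least 1.12-fold and the activity-induced nuclear receptor Nr4a3 at least 3.34-fold higher at 15.5 dpc. These calls did not hold without single arrays: leaving out any 1 of the 8 left 0 or 1 gene called. Between cortex and cerebellum, where 0.197% of probe sets were called higher and 0.129% lower, Egr3 alone was called, at least 2.44-fold higher in cortex (adjusted p = 0.0342), and it was lost in each of the 8 fits without 1 array. Egr3 was above the array median on the 2 cortical arrays alone (358 and 900). It thus passed the filter for testing only through the group where it was higher, for this call and for the neonatal one above. Both calls of Egr3 are therefore a description. Between the duplications none of the 51 genes was called by limma, and 4 had an unadjusted p under 0.05.

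**Figure D4:**
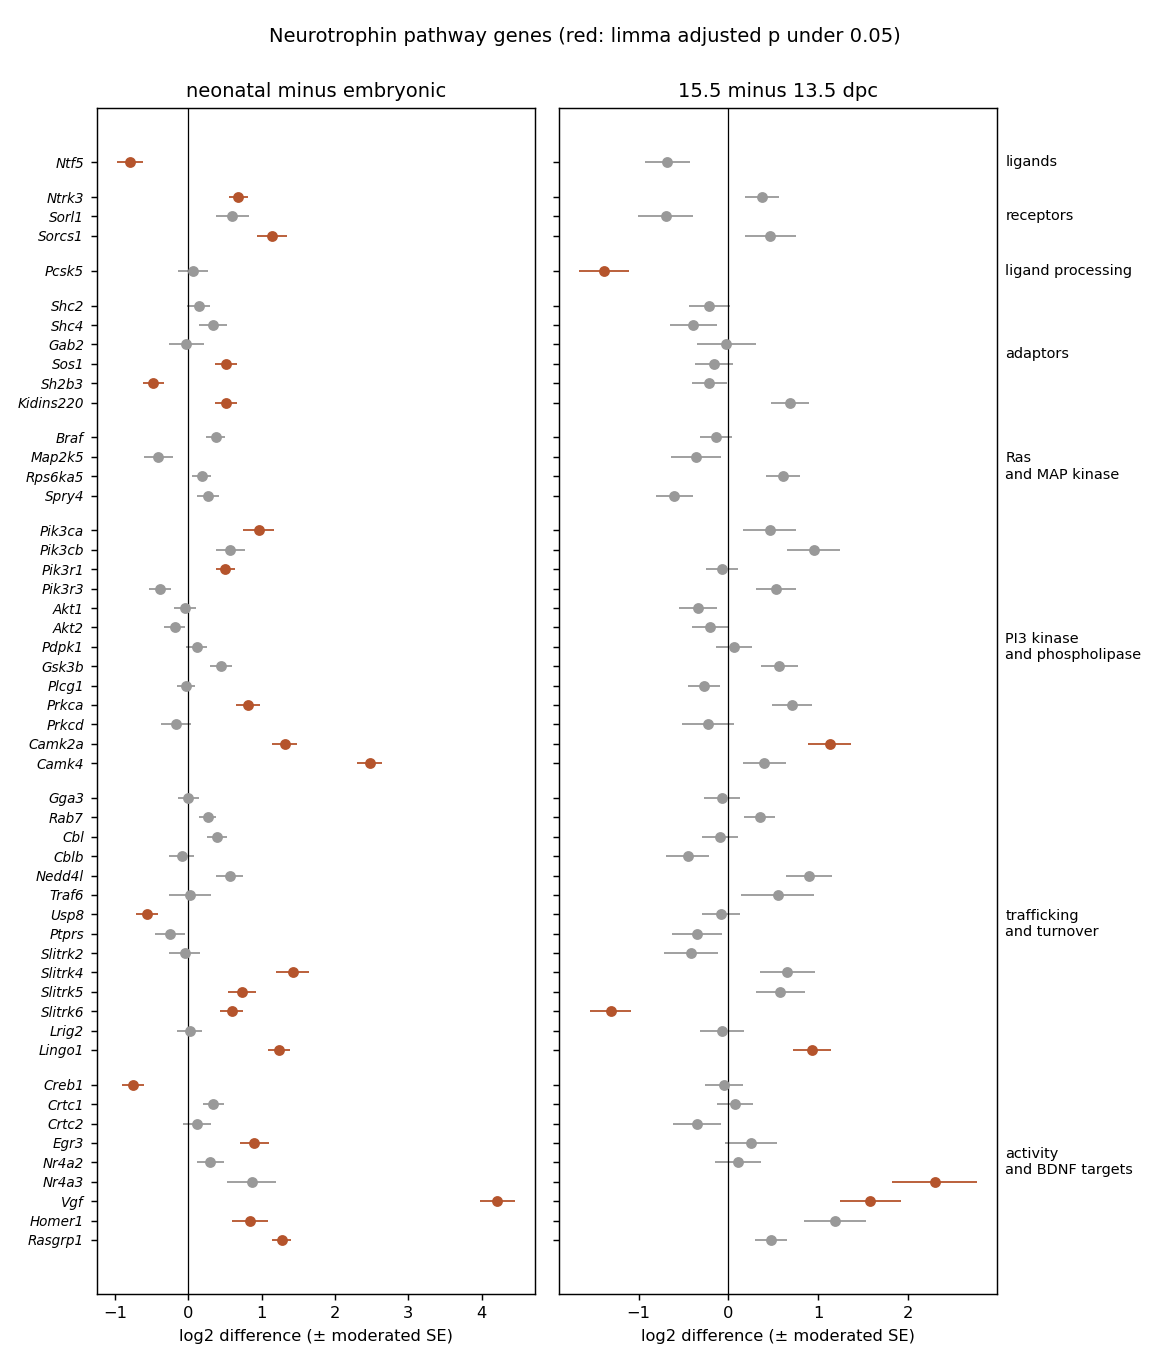
Log2 differences (± moderated SE) of the neurotrophin pathway genes besides Ntrk2, each by its brightest probe set and grouped by list, for neonatal minus embryonic brain (left) and 15.5 minus 13.5 dpc (right). Red points passed limma's adjusted p threshold of 0.05; Vgf at 4.21 and Camk4 at 2.47 are farthest to the right in the left panel.

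Each Ntrk2 probe set also had its own closest genes. Genes were ranked if their range of context means passed a limit set well below the range of the Ntrk2 probe set itself. The closest were the 8 with the highest Pearson r of log2 values over the 8 arrays, and shared contexts and array scaling raise all such values. For C, where 370 genes could be ranked, they were led by Sphkap and Sybu (both 0.993) and included the calcium sensor gene Hpcal4 (0.988) and the GABA-A receptor subunit gene Gabrb1 (0.984). For F (1236 ranked) they were led by Aak1 (0.997), a kinase of endocytosis, and included the synaptic adhesion gene Nlgn3 (0.994), the neuronal splicing factor gene Rbfox3 (0.994) and the synapsin gene Syn3 (0.993). For B (2913 ranked) Gpd1l came first (0.998), with the neural cell adhesion gene Opcml (0.988), the dynamin gene Dnm3 (0.985) and Rbfox1 (0.987). Rbfox1 was thus among the 8 closest genes of both B and F, by different probe sets of its own. A high r did not mean a change of equal size: Sphkap had mean signals of 804 at 13.5 dpc and 4843 in cerebellum, against 202 and 5555 for C.

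The genes closest to A were others. They were led by Cit (0.984), the gene of citron kinase, then Fads6 (0.982), Endod1 (0.977), Klhl18 (0.975) and Usp6nl (0.973). Gpr17 (0.972), a receptor of the oligodendrocyte lineage, the synaptotagmin gene Syt13 (0.971) and Ccdc153 (0.966) followed. The other tested genes of the oligodendrocyte lineage list did not share the neonatal difference of Gpr17 (2.47). Pdgfra gave 0.21 and Mobp -0.43, and neither was called. Gpr17 had mean signals of 170 at 13.5 dpc, 185 at 15.5 dpc, 967 in cortex and 1687 in cerebellum, but its embryonic signals (265 and 106 at 15.5 dpc, 202 and 139 at 13.5 dpc) were dim on 3 of 4 arrays, where A was bright on all. For E (6381 ranked) Ndufa4l2 was closest (0.982), with a neonatal minus embryonic difference of -0.52, beside Iqgap3 (0.968) and Sebox (0.959).

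**Figure D5:**
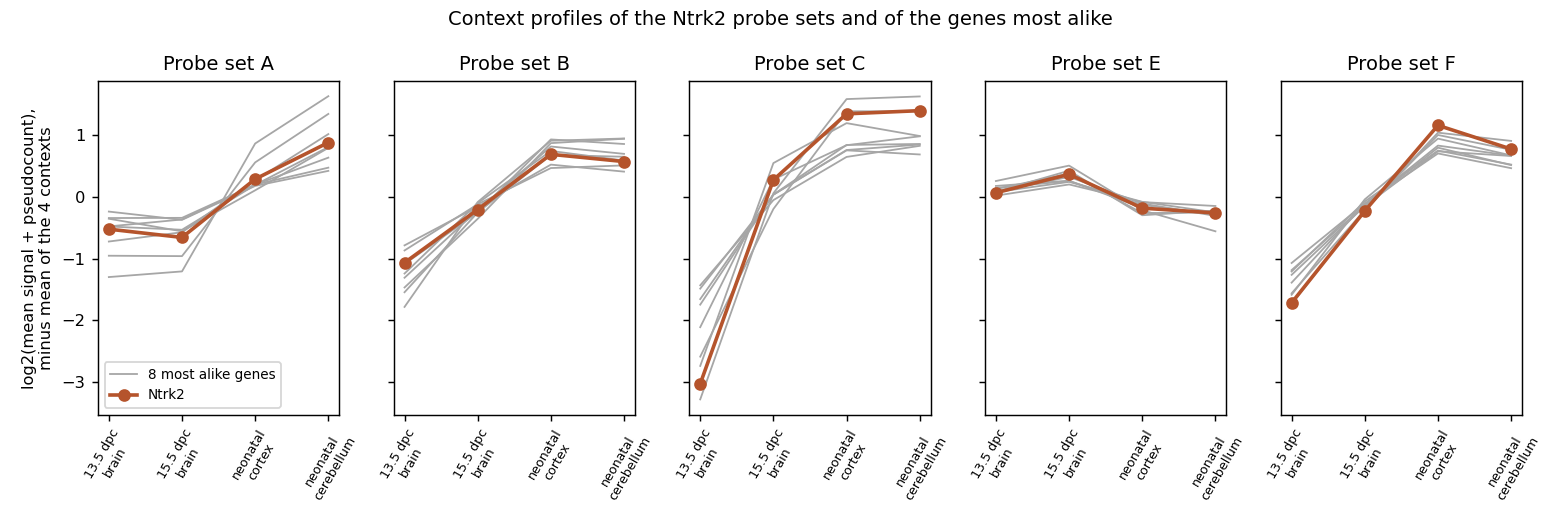
Context profiles of the 5 tested Ntrk2 probe sets (red) and of the 8 genes most alike for each (grey), as log2(mean signal + pseudocount) minus the mean of the 4 contexts. The profiles of B, C and F are lowest at 13.5 dpc and highest in the neonatal regions, that of A is level between the embryonic ages and highest in cerebellum, and that of E is shallow.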

How the data were processed

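Total RNA had been extracted with Trizol and RNeasy columns, and 9 µg went into biotinylated cRNA, per the labels' protocols. The deposited values are linear signal intensity values, 1 per probe set and array, and per the submitters' processing notes come from MAS5, whose version and scaling target are not given in the sources used here. A trimmed mean was 499.9 on every array. MAS5 summarises each array alone, so dim values are noisy, and precision is limited by how few arrays there are.

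Removal of 64 controls left 22511 probe sets. Symbols came from the platform annotation, updated through RefSeq GRCm38.p6, and 14661 probe sets had 1 symbol. Signals were used as log2(signal + 58.5), with the arrays' median 20th percentile as pseudocount. Probe sets above the array median on at least 2 of 8 arrays (13221) entered limma 3.58.1 (R 4.3.3) with terms for the 4 contexts and 1 for duplication, p-values were Benjamini-Hochberg adjusted over all of them, and the threshold was 0.05. With 1 array per group, the error is the disagreement of the duplication effect between contexts, which limma moderates toward a value estimated over all tested probe sets. The p-values reflect that moderated spread and not a spread between replicates. The fit was tested on simulated data. The alternatives were quantile normalization, median centring, a pseudocount of 16, a floor of 1, other filters, any probe set of a gene, and fewer arrays. The separate duplication effects were added after seeing the data.

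Named were all Ntrk2 probe sets, every measured ligand and receptor, up to 4 called genes per direction, comparison and list, or the 2 largest differences of a list with none, and genes from the 8 most alike per probe set. Ntrk2 and the gene lists were chosen with earlier results of these data known. No probe sequences were used here.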

Additional observations from a re-analysis of the deposited data

How the results depend on the processing

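The context differences of Ntrk2 probe sets A, B, C, E and F kept their sign under quantile normalization, median centring, a floor of 1 and a pseudocount of 16. Without single arrays, the neonatal minus embryonic difference stayed within 2.46 to 2.97 for C, 1.79 to 2.10 for F, 1.15 to 1.40 for B, 0.99 to 1.32 for A and -0.59 to -0.28 for E. Other differences changed sign with single arrays: cortex minus cerebellum ran from -0.65 to 0.38 for C and -0.18 to 0.39 for E, and 15.5 minus 13.5 dpc from -0.04 to 0.58 for E. Among pathway genes, the 21 called between neonatal and embryonic brain became 13 with no filter and 7 to 18 without single arrays. The 6 called between 15.5 and 13.5 dpc became 1 with the floor, 2 with the smaller pseudocount, 0 with no filter, 3 with the strict filter of 6 arrays, 0 without both neonatal contexts and 0 to 1 without single arrays. The 1 called between cortex and cerebellum became 0 with no filter, without both embryonic contexts and without any single array (0 to 0). The cause of these changes was not tested, beyond the fewer samples of the smaller fits. Paternal-7 minus maternal-7 differences of Ntrk2 were never called, and several changed sign around 0. Without both neonatal contexts A was -0.10, C -0.10 and F -0.32. By construction these equal the separate embryonic effects added after seeing the data, since both average the same embryonic arrays. Without both embryonic contexts E was -0.19, which for the same reason equals its separate neonatal effect. F was -0.01 with quantile normalization, -0.03 with median centring and 0.00 with the floor. Without single arrays the ranges were 0.02 to 0.28 for A, 0.11 to 0.30 for B, 0.00 to 0.48 for C, -0.09 to 0.30 for E and -0.14 to 0.22 for F. Where an array was left out, its partner was assumed to vary like the other arrays. The labels carry no replicate numbers, and the context terms already pair the duplications within each context.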
